A study of Homo sapiens with 4 samples.

Results

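The beta-globin locus is a cluster of related genes on the short arm of chromosome 11, here taken as chr11:5200000-5310000 of hg38. All CpGs at these positions were used, which gave 757 CpGs listed in at least 1 of 4 whole-genome bisulfite libraries and 732 listed in all 4, of 23269121 CpGs listed in all 4 across chromosomes 1 to 22 and X. The reference sequence of the interval holds 770 CpGs. The genes run on the minus strand in the order HBB, HBD, HBG1, HBG2 and HBE1, with the pseudogene HBBP1 and the noncoding RNA gene BGLT3 between HBD and HBG1. The locus control region, taken as chr11:5275000-5292000, lies beyond HBE1 and held 93 listed CpGs, 92 of them in all 4 libraries.

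Haemoglobin carries beta-type chains that change during development, from the embryonic chain of HBE1 through the fetal chains of HBG1 and HBG2 to the adult chains of HBB and HBD. The locus control region is a series of DNase hypersensitive sites that binds erythroid transcription factors and drives whichever gene of the cluster is active. Methylation of CpGs is commonly high over silent globin genes and low over active ones, and loss of DNA methylation is a known route to fetal globin expression in adult erythroid cells.

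The cells were HUDEP-2, an immortalised human erythroid precursor line that makes mostly adult haemoglobin. One library came from each of 4 groups. The first was untreated, non-differentiated cells. The other 3 were differentiated, for 4 days in growth medium and then 2 days in maturation medium, and received an EED inhibitor, a DNMT1 inhibitor, or the vehicle DMSO alone. DMSO was at 0.1% and was shared by all 3, starting at expansion. DNMT1 copies methylation to new DNA strands, and EED belongs to the Polycomb complex that marks histone H3 of silent genes. Both inhibitor libraries are labelled as having raised fetal haemoglobin. The compounds' names and doses are not given in the sources used here. With 1 library per group there is no spread between replicates. Tests below compare the reads of 2 libraries, not conditions. Intervals are 95% Wilson intervals for levels and Newcombe intervals for differences. They cover counting error only: counts per CpG do not show whether PCR copies were removed, and a read enters once for each CpG it spans. Levels come from bulk DNA, so a level between 0% and 100% cannot be split into cells or alleles.

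CpGs listed in the 4 libraries were covered by 27.2 to 29.7 reads on average, and the 732 shared CpGs of the locus by 27.2 to 29.8 reads. The share of reads that were methylated over all shared CpGs of the genome stood at 61.7% before differentiation and 60.3% after it in DMSO. It was 16.8% under DNMT1 inhibition and 59.3% under EED inhibition. Values of 4 libraries are given in that order from here on. Promoters of erythroid marker genes were a mixture: of 8 genes, 6 could be tested, with a median of 35.5%, 40.4%, 4.43% and 38.6%. Among them KLF1 stood at 1.55%, 2.12%, 0.342% and 0.586% and SLC4A1 at 90.7%, 83.5%, 10.3% and 87.1%. All 8 markers of other blood lineages were tested, with a median promoter level of 59.2%, 57.4%, 9.26% and 53.4%. As erythroid promoters stood at both low and high levels, promoter methylation alone was no test of the labelled cell type.

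The locus was methylated at most CpGs, with short gaps. The sequences below are the reference letters, 5′ to 3′, at the gaps around hypersensitive sites HS1 to HS4 of the locus control region. They are shown because the low stretches of the control region lie there, and each window holds part of its stretch. The windows were placed after the values were seen, so as to hold low CpGs and, where there was one, a TGAGTCA match. Capitals mark CG, TGAGTCA (the core letters of sites for NF-E2, an erythroid activator, and AP-1) and AGATAA (a form of the letters bound by GATA factors). Each was marked on either strand, so that TGACTCA and TTATCT are also in capitals. Other forms of the GATA letters, such as AGATAG, were not searched for and stay in lower case. The 4 windows are from the plus strand of hg38 at chr11:5275441-5275680, chr11:5280608-5280847, chr11:5284820-5285059 and chr11:5288065-5288304.
HS1: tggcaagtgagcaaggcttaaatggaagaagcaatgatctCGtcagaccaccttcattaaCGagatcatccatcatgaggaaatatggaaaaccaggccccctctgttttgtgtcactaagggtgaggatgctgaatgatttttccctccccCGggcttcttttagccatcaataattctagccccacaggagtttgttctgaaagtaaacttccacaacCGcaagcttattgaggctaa
HS2: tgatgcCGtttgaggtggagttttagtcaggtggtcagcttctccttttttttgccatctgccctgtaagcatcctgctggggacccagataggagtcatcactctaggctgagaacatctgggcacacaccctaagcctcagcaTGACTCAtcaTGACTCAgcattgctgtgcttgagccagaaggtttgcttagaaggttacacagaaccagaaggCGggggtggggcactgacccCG
HS3: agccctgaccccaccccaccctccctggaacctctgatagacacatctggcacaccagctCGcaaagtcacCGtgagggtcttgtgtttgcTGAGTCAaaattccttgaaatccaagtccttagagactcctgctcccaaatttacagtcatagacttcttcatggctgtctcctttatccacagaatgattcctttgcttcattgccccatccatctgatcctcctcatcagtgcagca
HS4: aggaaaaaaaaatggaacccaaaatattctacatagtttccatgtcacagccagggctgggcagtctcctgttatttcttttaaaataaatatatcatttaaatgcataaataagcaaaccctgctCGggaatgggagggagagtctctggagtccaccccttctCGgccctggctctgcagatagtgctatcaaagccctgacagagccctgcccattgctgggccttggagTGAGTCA

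The 240 bases from HS1 held 4 CpGs shared by all libraries, at 13.3%, 10.4%, 0% and 10.6%. The first of them, at 5275481, lies outside the HS1 low stretch (chr11:5275501-5276252), which read 5.41%, 5%, 0% and 3.98%. The windows from HS2, HS3 and HS4 held 2 shared CpGs each, and their levels were at most 2.5% in every library. HS2 shows the known tandem pair of NF-E2 letters, with TGACTCA starting at 5280753 and again at 5280763. HS3 and HS4 showed 1 match each in these windows. TGAGTCA on either strand occurred 22 times in the locus, and 5.46% of its 366 consecutive windows of 300 bases held it, close to 4.95% of 35116 promoters of 300 bases from RefSeq GRCh38.p14. AGATAA on either strand occurred 109 times and was held by 25.7% of locus windows and 10.3% of promoters. The CACCC letters of KLF factors were held by 33.1% and 59.9%, the TGACCA letters of BCL11A by 13.9% and 10.7%, and GGGGGC by 5.74% and 38.2%. None of these letter strings contains another. Locus windows and promoters were not matched for base composition, so the shares do not measure enrichment, and the part of composition in them was not tested. A match is a description of the letters and not of a bound site.

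A low promoter and a low stretch of a noncoding gene come next. The HBD promoter (minus strand, chr11:5234434-5234733, RefSeq GRCh38.p14) is printed with the same capitals. The stretch within BGLT3 (minus strand, chr11:5244735-5244974) comes from hg38 and has only CG in capitals.
HBD promoter: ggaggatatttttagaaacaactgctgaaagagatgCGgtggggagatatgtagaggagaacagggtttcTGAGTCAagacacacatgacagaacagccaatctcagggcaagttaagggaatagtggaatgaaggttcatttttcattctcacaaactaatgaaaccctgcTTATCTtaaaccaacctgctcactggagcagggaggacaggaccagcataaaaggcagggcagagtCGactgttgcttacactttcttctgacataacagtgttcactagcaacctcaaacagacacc
BGLT3 low stretch: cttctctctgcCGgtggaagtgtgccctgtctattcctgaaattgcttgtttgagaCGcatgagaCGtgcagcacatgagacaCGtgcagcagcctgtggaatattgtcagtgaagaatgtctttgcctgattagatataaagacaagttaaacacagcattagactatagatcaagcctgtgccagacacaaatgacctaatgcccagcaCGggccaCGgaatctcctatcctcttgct

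The HBD promoter of 300 bases held 2 CpGs, 1 match of TGAGTCA and 1 of AGATAA, and its CpGs read 0%, 1.96%, 0% and 0%. The 6 CpGs of the BGLT3 stretch read 0.995%, 2.16%, 0% and 7.75%.

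**Figure D1:**
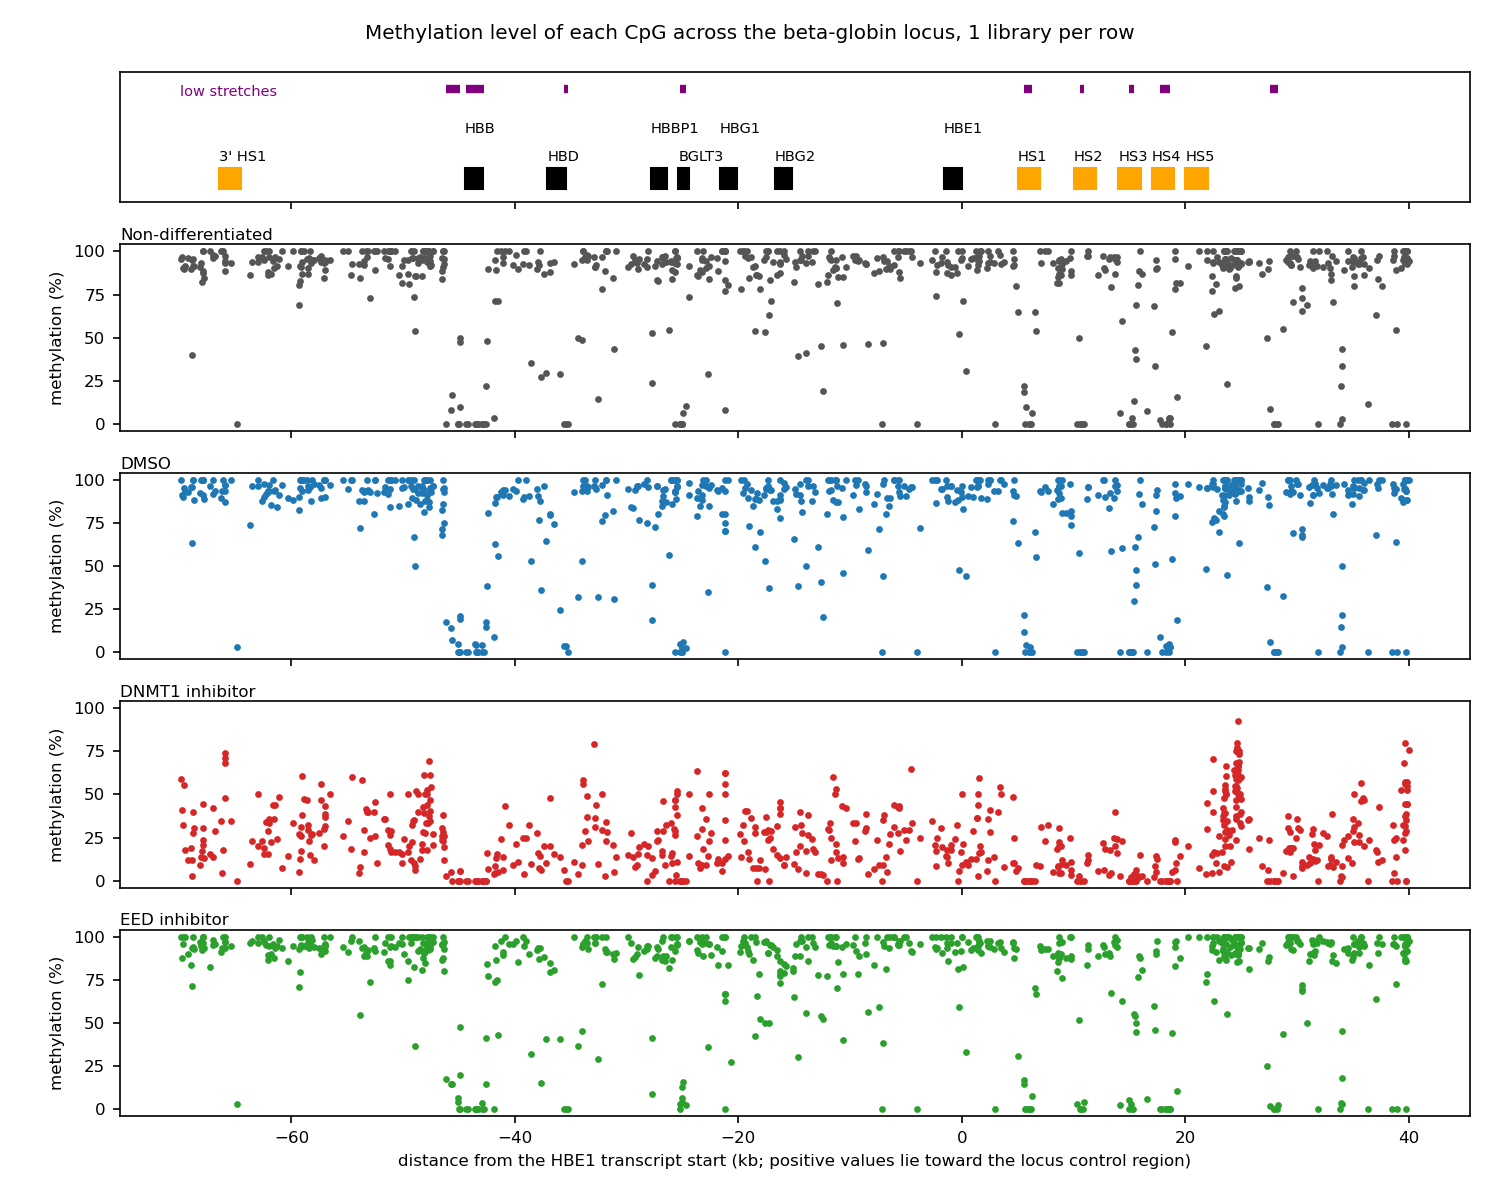
Methylation level (%) of each listed CpG against its distance in kb from the HBE1 transcript start, 1 row per library, with gene bodies (black), hypersensitive site windows (orange) and runs of at least 3 low CpGs (purple) above. Most points lie at 80% or more in 3 libraries, and the gaps at HBB, the HBD start, BGLT3 and HS1 to HS4 are in the same places in these 3. The DNMT1 inhibitor library has 3 such high CpGs. The gaps stand out less in its row, where 359 of the 732 shared CpGs are at 20% or less.

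Over the 732 shared CpGs the level of the locus was 81.3% in the non-differentiated library (80.7 to 81.8). It was 80.1% in DMSO (79.6 to 80.7) and 80.1% with the EED inhibitor (79.6 to 80.7), and 22.7% with the DNMT1 inhibitor (22.1 to 23.2). The DNMT1 inhibitor library stood apart from the other 3. CpGs at 80% or more numbered 581, 563, 3 and 571, which for the first is 79.4% of the locus against 48.7% of shared CpGs genome-wide. CpGs at 20% or less numbered 77, 78, 359 and 80, or 10.5%, 10.7%, 49.0% and 10.9% of the locus. The genome-wide shares were higher, at 21.9%, 21.7%, 65.4% and 22.8%.

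The low CpGs were mostly the same ones in the 3 libraries without the DNMT1 inhibitor. Of 77 CpGs at 20% or less in the non-differentiated library, 73 were also at 20% or less in DMSO and 74 with the EED inhibitor. All 77 were at 20% or less with the DNMT1 inhibitor, as were 359 of all 732 shared CpGs. Of the 581 CpGs that read 80% or more before differentiation, 0 read 20% or less in DMSO or with the EED inhibitor. With the DNMT1 inhibitor 217 of them did, and 361 stood between 20% and 80%.

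A run of at least 3 consecutive shared CpGs at 20% or less in the non-differentiated library is called a low stretch here, a rule chosen after the values were seen. There were 9, holding 57 of the 77 low CpGs. Along the chromosome the first was at chr11:5223760-5225042, just beyond the 3′ end of HBB, and the next, at chr11:5225593-5227196, covered HBB itself. The others were at the start of HBD (chr11:5234373-5234696), in BGLT3 (chr11:5244755-5245295), in HS1 (chr11:5275501-5276252), HS2 (chr11:5280522-5280846), HS3 (chr11:5284880-5285320) and HS4 (chr11:5287710-5288618), and at chr11:5297495-5298246, between the control region and the olfactory receptor gene OR51B4. None lay in HBG1, HBG2 or HBE1.

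The stretch near OR51B4 has no globin gene or textbook hypersensitive site in it. Its 5 CpGs read 2.50%, 2.13%, 0% and 1.11% on 120 to 180 reads per library, and 3 of them had no methylated read in any library. The CpG before it read 85.5% in DMSO and the one after it 32.4%. The other 20 low CpGs were single, and 8 of these had 0 methylated reads in all 4 libraries. At the deepest of the 8, position 5262816 between HBG2 and HBE1, 0 of 194 reads pooled over the 4 libraries were methylated. This allowed a level of up to 1.55%, taken as 3 counts over these reads and not as a Wilson limit. A base that is T in the line would read the same as an unmethylated C, and the cases cannot be told apart here.

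**Figure D2:**
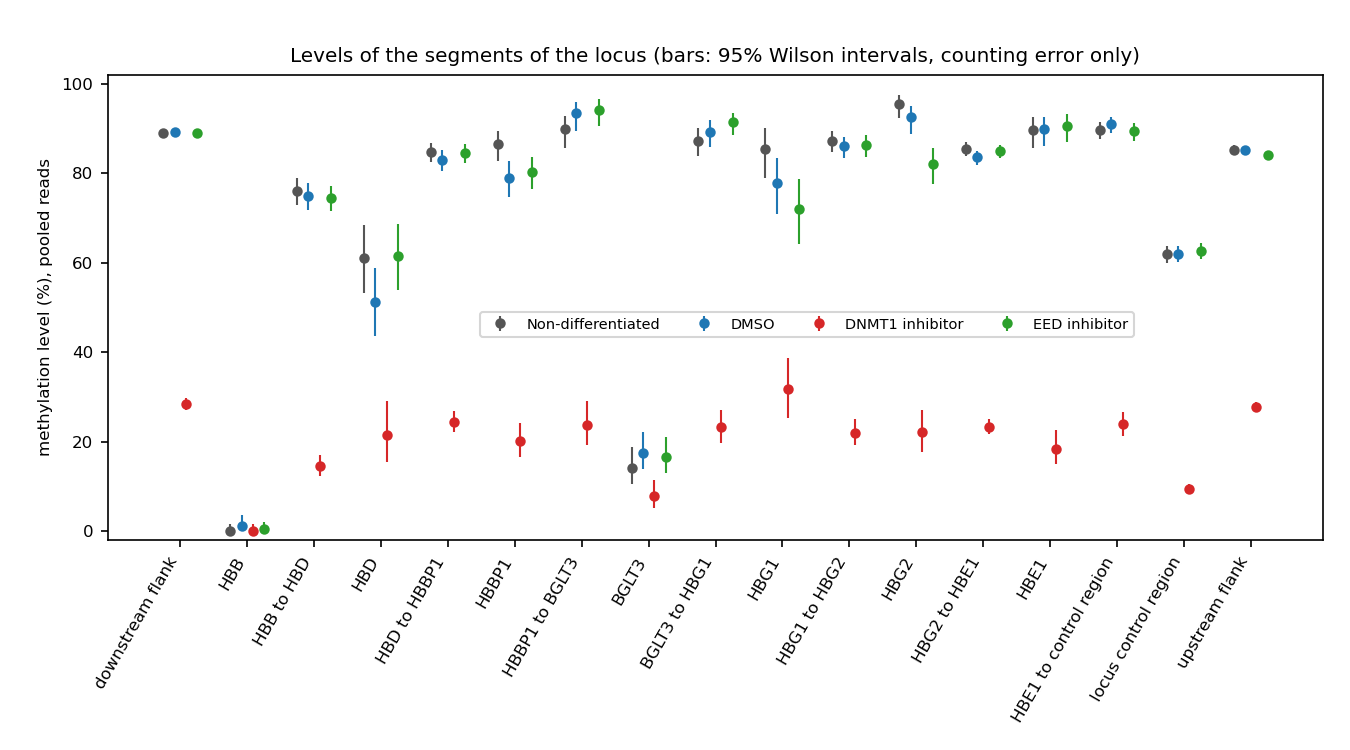
Methylation level (%) of each segment of the locus in order along the chromosome, from pooled reads of shared CpGs, with 95% Wilson intervals as bars and 1 point per library. HBB and BGLT3 lie under 20% in all 4 libraries, the locus control region stands near 62% in 3 of them, and the DNMT1 inhibitor points of the methylated segments lie between 9.51% and 31.7%.

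The locus control region was less methylated than the rest of the locus. Its level was 61.9% (59.96 to 63.8), 62.0% (60.2 to 63.7), 9.51% (8.51 to 10.6) and 62.7% (60.9 to 64.4). The segment between HBE1 and the control region read 89.7%, 91.0%, 23.9% and 89.4%, and the upstream flank, beyond the control region, read 85.3%, 85.2%, 27.7% and 84.0%. The intervals of the control region did not overlap those of either neighbour in any library. In the non-differentiated library 28 of its 92 shared CpGs were at 20% or less, against 77 of 732 in the whole locus.

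Hypersensitive sites were windows reaching 1000 bp to each side of points 6, 11, 15, 18 and 21 kb upstream of the HBE1 start. These are the textbook distances of HS1 to HS5, as the sources used here give no hg38 coordinates of the sites. The levels of a site therefore depend on where its window fell. HS1, the site nearest the genes, had the lowest levels at this width, with 20.5%, 15.1%, 0.816% and 15.4% over 10 CpGs. With 500 bp to each side HS4 was at or below it, with 1.23%, 2.65%, 0% and 0% over 5 CpGs against 8.33%, 5.91%, 0% and 6.45% over 8 CpGs of HS1. HS3 then read 6.25%, 11.5%, 0.858% and 14.8% over 7 CpGs. HS2, the strongest classical enhancer of the region, then read 68.2%, 61.0%, 8.61% and 57.9% over 6 CpGs. With 1000 bp to each side it read 60.6%, 54.1%, 6.76% and 50.0% over 8 CpGs. Within HS2 the low part was narrow: 4 of 8 CpGs were at 20% or less, while the highest stood at 95.7% in DMSO. The low stretch of HS2 read 0%, 0%, 0% and 1.41% over 3 CpGs. It lay wholly on the HBE1 side of the middle of the window.

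With 1000 bp to each side HS3, which acts together with HS2 as an enhancer, read 37.9%, 31.7%, 4.56% and 37.5% over 14 CpGs. HS4 read 30.7%, 35.2%, 4.07% and 34.9% over 14 CpGs. HS5, a site that binds the insulator protein CTCF, differed from the other 4. Its 5 CpGs read 87.9%, 86.2%, 19.5% and 92.7%, none was at 20% or less outside the DNMT1 inhibitor library, and its lowest CpG in DMSO, at position 5291805, read 45.0%, 48.1%, 3.85% and 73.9%.

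A sixth site, 3′ HS1, lies 21 kb beyond the 3′ end of HBB and is also known to bind CTCF. It resembled HS5 more than HS1 to HS4, at 89.3%, 85.2%, 33.0% and 86.6% over 9 CpGs. One CpG there was low, at position 5205049, with 0%, 3.33%, 0% and 3.13% on 22 to 34 reads. The 3′ HS1 window, like the others, was placed by distance only. Site differences depended on the width of the window. With windows reaching 500 bp to each side, the DNMT1 inhibitor minus DMSO difference of HS1 was −5.91 points in place of −14.3. That of HS3 was −10.7 in place of −27.2, and that of HS4 was −2.65 in place of −31.2. Under the same change HS2 went from −47.3 to −52.4 points, HS5, with 1 shared CpG left, from −66.6 to −88.4, and 3′ HS1 from −52.1 to −40.1. The DMSO minus non-differentiated difference changed sign at HS3, from −6.16 to 5.27 points, and at 3′ HS1, from −4.13 to 1.92. At HS2, with 1000 bp to each side, the DNMT1 inhibitor minus DMSO difference also moved with other settings. A minimum of 20 reads gave −77.9 points and an unweighted mean −37.3, in place of −47.3.

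**Figure D3:**
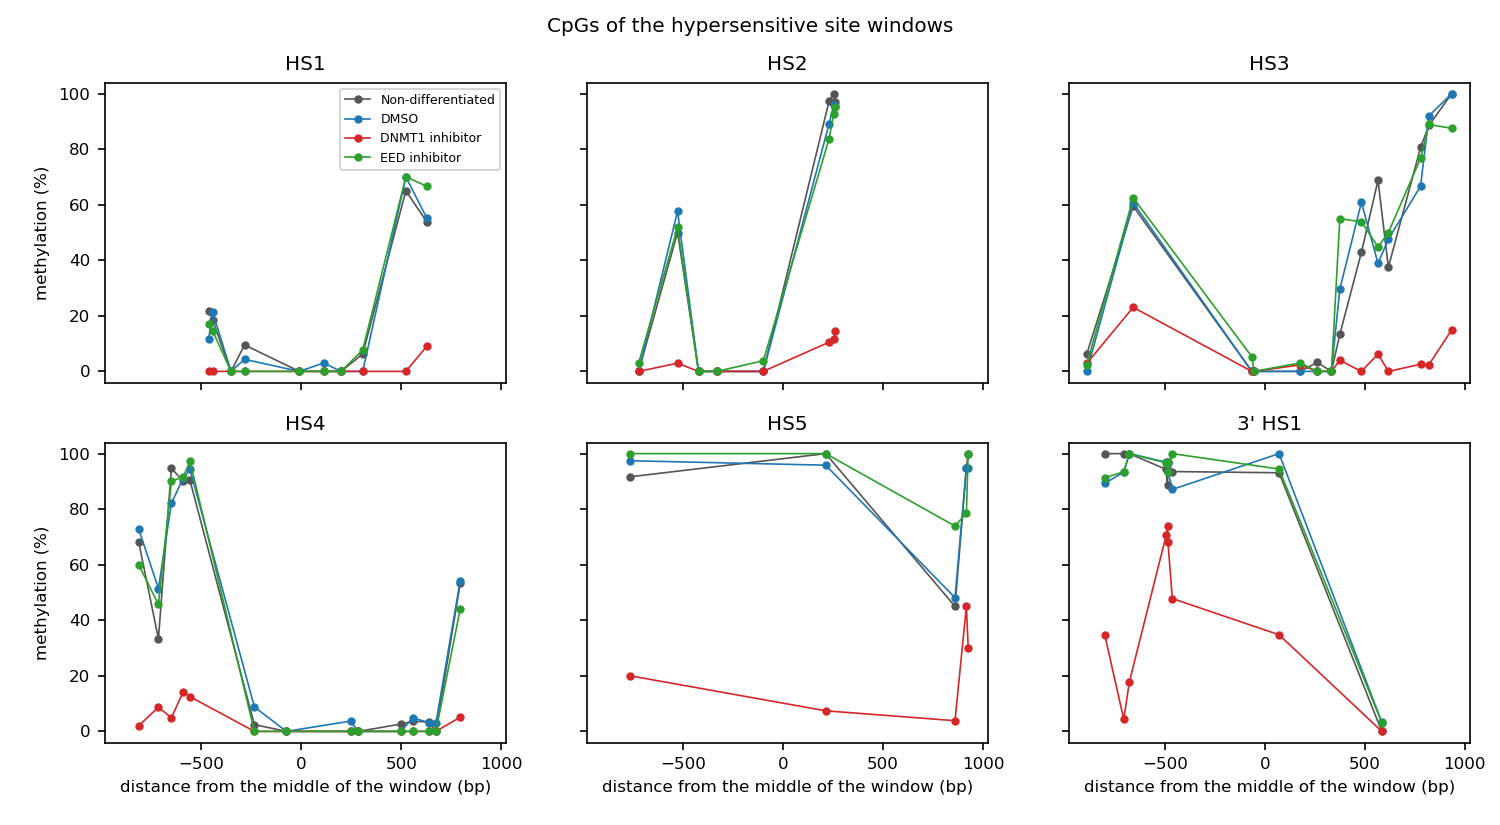
Methylation level (%) of each shared CpG against its distance in bp from the middle of the 6 hypersensitive site windows, with 1 line per library. HS1 to HS4 each have a run of at least 3 CpGs at 20% or less in the non-differentiated library, and the windows of HS2, HS3 and HS4 also hold CpGs at 80% or more in DMSO, while HS5 has no such run and 3′ HS1 has 1 low CpG.

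HBB encodes the adult beta chain, the main product of HUDEP-2 cells. Its gene body (chr11:5225464-5227071) was unmethylated in every library, at 0%, 1.22%, 0% and 0.364% over 10 CpGs. Within 250 bp of the transcript start 3 CpGs read 0%, 1.49%, 0% and 1.08%. The low stretch spanned 1604 bp and ended at position 5227196. Further upstream the levels were mixed. The CpG at 5227377 read 0%, 14.8%, 0% and 14.7%. The one at 5227485, at −414 from the start, read 47.8%, 38.5%, 16.0% and 84.4%, and the one at 5227539 read 90.0%, 81.0%, 6.90% and 76.9%. Beyond these, the CpG at 5228040 read 3.70%, 8.82%, 3.70% and 0%.

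HBD encodes the delta chain, a minor adult product. Its 3 CpGs within 250 bp of the start read 0%, 2.50%, 1.45% and 0%. The gene body (chr11:5232838-5234483) was not uniform. Its CpG nearest the start read 3.45% in DMSO and the 4 further in read 24.4% to 80.0%, so that the body as a whole stood at 61.1%, 51.2%, 21.5% and 61.6%. HBB and HBD were thus low at the start in all 4 libraries, and of these genes HBB was low to its 3′ end.

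HBBP1, a pseudogene of the cluster, was methylated at 86.5%, 79.0%, 20.1% and 80.4% over 12 CpGs. BGLT3, a noncoding RNA gene known to act on gamma-globin expression, was low in its body at 14.1%, 17.6%, 7.80% and 16.6% over 8 CpGs. Of these, 7 were at 20% or less in each library. The 2 CpGs within 250 bp of its own start were not low, at 82.9%, 94.7%, 29.7% and 97.4%. The last CpG of the low stretch, at 5245295, lies just outside these 250 bp, which begin at 5245296. BGLT3 lies just downstream of HBG1, and the segment between them read 87.3%, 89.3%, 23.2% and 91.4%.

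HBG1 and HBG2 encode the fetal gamma chains. Their sequences are almost the same, so a read from 1 gene can map to the other or to neither. Of the 13 reference CpGs of the locus that no library listed, 5 lay in HBG1, 4 in HBG2, 3 between them and 1 in the upstream flank. The start of HBG1 was therefore hardly measured, since its 7 reference CpGs within 250 bp had no line in the tables. For HBG2, 1 of 7 was shared, at position 5254942, at −161 from the start, with 82.2%, 65.8%, 9.76% and 65.0% on 38 to 45 reads.

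The body of HBG1 (chr11:5248269-5249857) read 85.4%, 77.8%, 31.7% and 72.0% over 10 CpGs. Its coverage of 14.3 reads per CpG in the EED inhibitor library was the lowest among the gene bodies. The body of HBG2 (chr11:5253188-5254781) read 95.6% (92.4 to 97.5), 92.5% (88.8 to 95.1), 22.1% (17.7 to 27.1) and 82.0% (77.6 to 85.8). The EED inhibitor library was 10.5 points below DMSO there (interval −15.7 to −5.18), and 8 of 10 CpGs were lower. HBG2 had the largest such decrease of the 5 globin gene bodies. The HBD body moved the other way by a like amount, 10.4 points above DMSO (−0.356 to 20.8). The HBG2 promoter stood 1.17 points above DMSO (−5.12 to 7.38). The 2 windows of 1 kb that cover most of HBG2 were not called, with differences of −7.00 and −9.62 points and Benjamini-Hochberg adjusted p from Fisher's exact test of 0.335 and 0.402.

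HBE1 encodes the embryonic epsilon chain. Its body (chr11:5268345-5269945) read 89.6%, 89.8%, 18.4% and 90.6% over 12 CpGs, and 4 CpGs within 250 bp of the start read 91.5%, 91.3%, 25.2% and 93.5%. The bodies of the embryonic and fetal genes stood at 72.0% or more in the 3 libraries without the DNMT1 inhibitor, in contrast to HBB. Ordered by the level of the gene body in DMSO the genes were HBB, HBD, HBG1, HBE1 and HBG2. The intervals of HBE1 and HBG2 overlapped and so did not set them apart, while those of the other neighbours did not overlap.

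Promoters were taken to begin 1000 bp before the start and to end 500 bp after it. In DMSO the order was HBB, HBD, HBG2, HBE1 and HBG1, at 15.2%, 31.3%, 80.2%, 83.5% and 95.8%, and the intervals of HBG2 and HBE1 overlapped. The HBG1 value rests on 6 of 14 reference CpGs, none within 250 bp of the start, and that of HBG2 on 8 of 14. The promoters whose levels in the 4 libraries were nearest to a globin promoter were taken over all tested promoters by Euclidean distance over 4 libraries, in percentage points. For HBB these were PLD5 at 1.08, GLDC at 1.45 and GRK3 at 1.48. For HBE1 they were DMPK at 0.857, VKORC1L1 at 1.97 and APOC2 at 2.06. For HBG2 the nearest was ENSG00000284931, an overlapping gene with the same 8 CpGs, followed by UBE2E1 at 1.5 and RUFY3 at 1.80.

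Differentiation was compared as DMSO against non-differentiated cells. The locus differed by −1.16 points (−1.93 to −0.382), the genome by −1.42 points and the control region by 0.0513 points (−2.57 to 2.67). Each CpG was tested with Fisher's exact test, two-sided, on its methylated and other reads. Adjustment by Benjamini-Hochberg ran over all 23269121 shared CpGs. A call needed 25 points or more and an adjusted p under 0.01. No CpG of the locus was called, as none was genome-wide (0%), and 8 of 732 (1.09%) had an unadjusted p under 0.05, against 2.55% genome-wide. None of 99 windows of 1 kb with at least 3 shared CpGs was called lower (0.000864% genome-wide) or higher (0.000288%), and 11 (11.1%) had an unadjusted p under 0.05, against 8.31%. None of the 5 globin promoters was called, against 0% of 18118 promoters, and 1 of 5 had an unadjusted p under 0.05, against 17.5%.

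Among CpGs with at least 20 reads in both libraries, the largest decreases were at 5225061 beyond HBB, from 50.0% to 19.0%, at 5252728 between HBG1 and HBG2, from 62.9% to 37.0%, and at 5298685 in the upstream flank, from 54.8% to 32.4%. The largest increases were at 5258742 and 5267595 between HBG2 and HBE1, from 70.0% to 96.2% and from 74.3% to 100%, and at 5201088 in the downstream flank, from 40.0% to 63.3%. The Benjamini-Hochberg adjusted p from Fisher's exact test was 1 for each. HBBP1 was the gene body whose interval lay clear of 0, at −7.48 points (−12.9 to −2.07), and HBD stood at −9.93 points (−20.4 to 0.92).

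**Figure D4:**
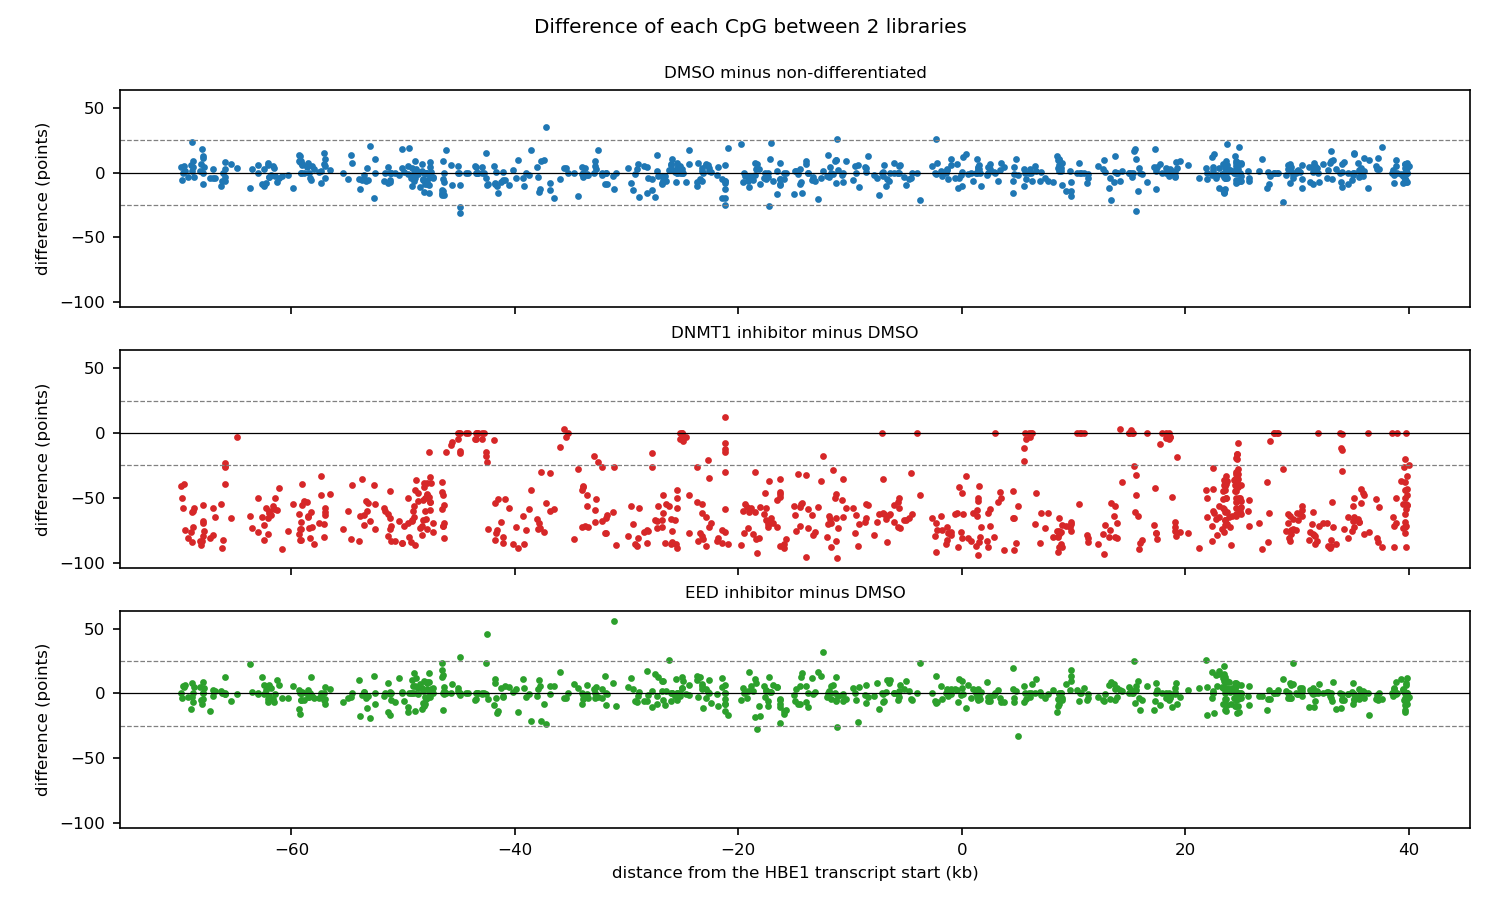
Difference in methylation level (percentage points) of each shared CpG against its distance in kb from the HBE1 start, 1 panel per comparison, with dashed lines at −25 and 25 points. In the DNMT1 inhibitor panel 684 of 732 CpGs lie below 0, and in the other 2 panels the points scatter on both sides of 0.

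With the DNMT1 inhibitor most of the locus lost methylation relative to DMSO. The difference was −57.5 points (−58.2 to −56.7) over the locus and −43.5 points over the genome. Of 732 CpGs, 587 were called lower, against 63.6% genome-wide, and none was called higher (4.3e-06% genome-wide). By window 91 of 99 were called lower against 81.3%, and by promoter 3 of 5 against 43.7%. The median window difference was −62.0 points in the locus and −42.4 points over all windows. The locus also started higher, since 76.9% of its CpGs stood at 80% or more in DMSO against 46.6% genome-wide.

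A CpG under 25% in DMSO cannot fall by 25 points, so the 78 CpGs at 20% or less in DMSO could not be called lower. Of the others, 64 of 91 between 20% and 80% and 523 of 563 at 80% or more were called. The 8 windows that were not called stood at 1.53% to 32.4% in DMSO. They held HBB and its 3′ side, the start of HBD and parts of HS1, HS2, HS3 and HS4. The promoters called were HBG1 (−67.4 points), HBE1 (−65.7) and HBG2 (−57.5). The HBB promoter, at 15.2% in DMSO, could not be called by this rule. The differences of HBB (−12.7) and HBD (−24.7) were under 25 points in size, with Benjamini-Hochberg adjusted p from Fisher's exact test of 1.13e-07 and 5.83e-08. From 2000 bp upstream all 5 promoters were called. When each promoter's reads were divided by its number of CpGs, the adjusted p by the same test was 0.31 for HBB and 0.116 for HBD, and at most 3.00e-05 for the other 3.

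Single CpGs with the largest decreases were at 5255980 upstream of HBG2, from 100% to 4.55%, at 5271421 upstream of HBE1, from 96.6% to 2.70%, and at 5282711 in the control region, from 100% to 6.45%. The gamma-globin CpG at 5254942 fell by 56.0 points (Benjamini-Hochberg adjusted p from Fisher's exact test, 1.4e-06). In 4 CpGs of the 732 the DNMT1 inhibitor library read higher than DMSO. These stood at 3.45% or less in DMSO.

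The control region kept a smaller part of its methylation than the rest of the locus. The DNMT1 inhibitor level was 15.4% of the DMSO level in the control region, 28.3% in the whole locus and 27.9% over the genome. Among windows at 50% or more in DMSO, 9 windows of the control region kept 10.8% to 30.8% with a median of 13.8%. The 75 other windows of the locus kept 12.3% to 52.2% with a median of 27.7%. The genome's quartiles over 1438317 such windows were 19.6% and 33.0% with a median of 25.8%, so that 7 of the 9 control region windows and 11 of the 75 others lay under the first quartile.

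Levels left with the DNMT1 inhibitor also moved with the number of CpGs nearby, and they are given here by CpG density, a description chosen after the values were seen. CpGs that read 80% or more before differentiation were used. With 3 to 5 reference CpGs within 250 bp, 27 in the control region read 14.2% with the DNMT1 inhibitor (12.1 to 16.6) and 228 elsewhere in the locus read 26.1% (25.1 to 27.1). With 6 to 10 neighbours, 12 CpGs read 17.2% (13.7 to 21.3) and 136 read 29.3% (27.9 to 30.8). With 1 to 2 neighbours, 11 read 14.5% (11.4 to 18.2) and 78 read 21.9% (20.4 to 23.6). These intervals cover counting error and not the spread between CpGs, and the part of CpG density in the lower level of the control region was not tested. In DMSO the same CpGs stood at 90.7% to 93.8% in the control region and at 92.4% to 94.8% elsewhere.

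**Figure D5:**
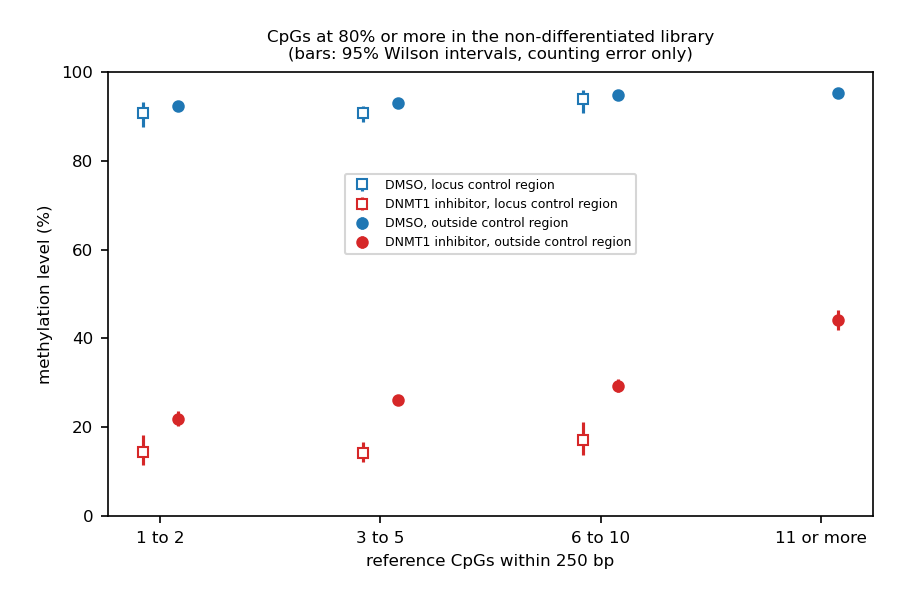
Methylation level (%) in DMSO and with the DNMT1 inhibitor of CpGs that read 80% or more before differentiation, by the number of reference CpGs within 250 bp, with 95% Wilson intervals. In the inhibitor library the squares for the locus control region lie at 14.2% to 17.2% and the circles for the rest of the locus at 21.9% to 29.3% over the 3 densities that both have, and the 89 CpGs with 11 or more neighbours outside it read 44.1%.

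With the EED inhibitor the locus stood 0.0243 points from DMSO (−0.743 to 0.792), the genome −1.03 points and the control region 0.698 points (−1.81 to 3.20). No CpG of the locus was called lower (0.00374% genome-wide) or higher (0.000623%), and 19 (2.6%) had an unadjusted p under 0.05, against 5.46% genome-wide. No window was called lower (0.0266%) or higher (0.00592%), and 7 (7.07%) had an unadjusted p under 0.05, against 12.6%. None of the 5 globin promoters was called lower (0%) or higher (0.0221%), and none had an unadjusted p under 0.05, against 21.2%. At this unadjusted p the shares of CpGs and windows in the locus were thus below those of all features tested, and 5 promoters are few for a share. The locus also held more CpGs at 80% or more in DMSO, 76.9% against 46.6% genome-wide. The part of this in the lower shares was not tested.

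The largest single increase was at position 5238788, at −4305 from the HBD start. It read 43.5% of 23 reads, 31.0% of 29, 5.00% of 20 and 87.1% of 31, so the EED inhibitor library was the highest of the 4. It stood 56.1 points above DMSO. The Benjamini-Hochberg adjusted p from Fisher's exact test was 0.0477, so it was called at the alternative threshold of 0.05 and not at 0.01. Next were 5227485 upstream of HBB, from 38.5% to 84.4% with an adjusted p of 0.182 by the same test, and 5257513 upstream of HBG2, from 20.6% to 52.4% with 0.543 by the same test. The largest decreases were at 5274938 beside the control region, from 63.4% to 30.8%, at 5251619 between HBG1 and HBG2, from 92.6% to 65.4%, and at 5258742, from 96.2% to 70.4%. The last of these had been among the largest increases of DMSO over the non-differentiated library, and both differences share the DMSO library.

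Promoters of other genes of the pathway were counted in the same tests, in which 43.7% of all promoters were called lower with the DNMT1 inhibitor. Of 6 other globin and chaperone genes 5 were tested, and HBZ, HBQ1 and AHSP were called lower with the DNMT1 inhibitor. AHSP, the chaperone of free alpha chains, read 37.8%, 49.2%, 2.88% and 42.5%. HBA1 and HBM, alpha-type globin genes, stood at 1.28% or less in every library. Of 26 regulators of the locus 23 were tested, with a median of 3.87%, 4.67%, 1.22% and 3.73%, and NR2C1 and HIC2 were called lower with the DNMT1 inhibitor. Of the erythroid markers 4 of 6 and of the other lineage markers 6 of 8 were called lower, as were the promoters of the olfactory receptor genes OR51V1 and OR51B4 at either end of the locus. A promoter under 25% in DMSO could not be called lower by the rule of 25 points. Every tested promoter of the lists counted here that was not called stood under 25% in DMSO, up to 24.2% for MBD3. The counts thus follow the level in DMSO. For differentiation and the EED inhibitor no gene of these lists was called. AHSP for differentiation, at 11.4 points, failed only the rule of 25 points. The same held for MBD3 (−6.56 points) and CD14 (−5.74 points) with the EED inhibitor.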

How the data were processed

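The deposited tables follow methylKit's format, per the file headers. They hold a read count for each CpG and, as percent, the shares of reads showing C and T. Strands were merged and every listed CpG had a coverage of at least 10 reads. The submitters' processing notes name hg38, Trim Galore 0.6.7, cutadapt 4.1, Bismark, Bowtie2 2.1.0 and methylKit, with no order or role. Removal of duplicates is not given in the sources used here. Unremoved duplicates or conversion failures would move levels.

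Methylated reads were recovered from the deposited percent and count by rounding, and all values came out whole within the rounding of the percent. Positions count from 1 and give the C of each CpG in hg38. CpGs on chromosomes 1 to 22 and X listed in all 4 libraries were used. A level is methylated reads over all reads of a set, so deeper CpGs weigh more. Fisher's exact tests were two-sided with Benjamini-Hochberg adjustment over all CpGs, all 1000 bp windows with at least 3 shared CpGs, or all protein-coding promoters with at least 5. The code was tested on simulated data. Genes came from GENCODE 44. Python 3.11.15, numpy 2.4.6, scipy 1.17.1 and pandas 2.3.3 were used.

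The members and lists were chosen with earlier results of these data known. Single CpGs named are those near transcript starts, the 3 largest differences per comparison and direction among CpGs with at least 20 reads in both libraries, and the lowest CpG of each site in DMSO where it adds to the text. SLC4A1 and KLF1, and the CpGs named beside HBB, BGLT3 and the low stretches, were named after their values were seen. Alternatives changed the CpGs used, coverage minimum, weighting, extent, thresholds, window edges, promoter and site widths, the independence of reads and the reference library.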

Additional observations from a re-analysis of the deposited data

How the results depend on the processing

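No replicate could be left out, and no paired analysis was possible because each group has 1 library. The DNMT1 inhibitor minus DMSO difference of the locus, −57.5 points, was −59.1 at a minimum of 20 reads, −58.6 against the non-differentiated library, −56.3 as an unweighted mean and −58.4 without the locus control region. For the control region, −52.4 points became −57.7 at a minimum of 20 reads and −49.98 as an unweighted mean. The EED inhibitor difference of the locus, 0.0243 points, was −1.13 against the non-differentiated library. An adjusted p under 0.05 called 1 CpG higher with the EED inhibitor in place of 0. Promoters from 2000 bp upstream called 5 globin genes lower with the DNMT1 inhibitor in place of 3. These promoters held 18 CpGs in place of 10 for HBB, with −37.0 points in place of −12.7. For HBD they held 14 in place of 5, with −39.2 points in place of −24.7. Locus differences against the non-differentiated library include by definition the DMSO minus non-differentiated difference, −1.16 points. The cause of the other changes was not tested. The DNMT1 inhibitor calls ran from 407 of the 475 CpGs with at least 20 reads to 619 of 732 at an adjusted p under 0.05. Of 99 windows, 91 were called, and 88 when the reads of a window were scaled down by its CpG number. There were 77 of 82 called at a minimum of 20 reads and 87 of 97 with edges shifted by 500 bp. For differentiation no alternative called a CpG, window or globin promoter, and the same held for the EED inhibitor apart from the CpG above. Depth limited what single CpGs could show, and the gamma-globin starts were measured at 1 shared CpG.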
